A study of Mus musculus with 3 samples.

Results

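The genes described here are 9 components, receptors and regulators of the complement system: C1qa, C1qb and C1qc, C4b, C3, Serping1, C3ar1, C5ar1 and Itgam. They were taken by name, and all 9 were rows of the 50262 genes measured in single cells of mouse glioblastoma. Each gene was described by its counts of UMIs (unique molecular identifiers, 1 per captured mRNA molecule) scaled to a total of 1000000 UMIs over a sort, tumor stage or cell class, called CPM here. The capture tags the 3′ ends of transcripts and no length correction was applied, so levels were compared between cells for 1 gene and not between genes.

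The tumors were driven by conditional overexpression of wild-type human EGFR, with Cdkn2a lost in every cell and a conditional luciferase reporter, in adult mice of both sexes on a mixed background. They were started by stereotactic injection of a lentivirus that carries TGFa and iCre, so each lesion arose from the cells the virus reached, and all groups shared the same alleles. After perfusion the brain without the cerebellum was dissociated, myelin was removed, and viable cells were sorted as CD45+ or CD45-, CD45 (gene Ptprc) being a surface protein of leukocytes. There were 3 tumor samples, 1 each of the early, medium and late stage, the early one pooled from more than 1 lesion, and the dissociated brain held tumor and surrounding tissue together. Each tumor sample gave a CD45+ and a CD45- sort, and each sort gave 4 technical libraries over 3 sequencing runs.

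Of 20811 deposited cells, 17781 were kept. The CD45+ sorts held 5091, 3983 and 2111 cells from the early, medium and late tumors, and the CD45- sorts held 2725, 1603 and 2268. The summed libraries ranged from 5381839 to 10808099 UMIs per stage and sort, and the median cell had 1964 to 3078 UMIs. A set of 974 cell barcodes occurred in at least 2 libraries of the same stage and sort, 8.2 times as often per pair of cells as in other pairs of libraries. Counting each of these barcodes once dropped 6.36% of the cells and changed no call on any of the 9 genes. Ptprc, the check of the sort, had 239 ± 11.6 CPM in the CD45+ sorts and 10.2 ± 6.22 in the CD45- sorts (mean ± SD, n = 3 tumor samples). Stages held 1 tumor sample each, so no test between stages was possible, and 95% intervals given for levels, ratios and shares of cells are exact and cover counting error only.

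Complement is a cascade of plasma and tissue proteins that marks surfaces for removal. C1q, built from the A, B and C chains that C1qa, C1qb and C1qc encode, starts the classical pathway by binding antibodies, damaged cells or synapses. It leads to cleavage of C4 and then of C3, the central component, while Serping1 (C1 inhibitor) blocks the proteases attached to C1q. C3a and C5a, the small fragments released, act on the receptors C3ar1 and C5ar1, and Itgam (CD11b) forms complement receptor 3 with Itgb2 and binds C3 fragments. In the healthy brain microglia are the main source of C1q, and the C1q-C3-Itgam axis is known for the removal of synapses.

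C1qb, C1qc and Itgam are shown by the sequence before their RefSeq start sites, because the 3 genes share a high level in microglia and a search of these sequences found the same short motif. The motif was GAGGAA, the core bound by PU.1-type ETS factors, searched on both strands within 250 bases before the start. Capitals mark a match, and TTCCTC is the match on the opposite strand. The 3 stretches are written 5′ to 3′ on the strand of the gene (GRCm38.p6), that of C1qc being the 99 bases that lie outside annotated exons.
C1qb, chr4:136886201-136886450, minus strand: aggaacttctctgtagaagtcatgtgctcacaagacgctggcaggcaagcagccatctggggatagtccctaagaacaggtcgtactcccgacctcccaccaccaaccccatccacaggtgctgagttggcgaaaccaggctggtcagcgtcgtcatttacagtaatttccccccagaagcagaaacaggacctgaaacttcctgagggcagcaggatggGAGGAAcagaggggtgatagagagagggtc
C1qc, chr4:136893066-136893164, minus strand: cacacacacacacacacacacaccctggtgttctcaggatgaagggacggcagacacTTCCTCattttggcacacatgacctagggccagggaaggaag
Itgam, chr7:128062390-128062639, plus strand: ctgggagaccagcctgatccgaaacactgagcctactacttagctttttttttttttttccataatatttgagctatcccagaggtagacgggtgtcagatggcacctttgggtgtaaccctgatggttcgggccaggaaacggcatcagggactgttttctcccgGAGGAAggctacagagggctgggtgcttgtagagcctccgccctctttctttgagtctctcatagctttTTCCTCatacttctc
The match began 30 bases before the start of C1qb on the same strand and 193 bases before the start of C1qc on the opposite strand. Itgam held a match 84 bases before its start on the same strand and another 15 bases before it on the opposite strand. The windows of C3, C3ar1 and C5ar1 held none, and RefSeq entries were matched for 6 of the 9 genes. GAGGAA occurred in 7639 of 32851 windows of that length (23.3%), so a match is frequent, and the TATA box letters TATAAA, found in 12.4% of windows, occurred only in that of C3ar1 among the 6. These matches are letters in a window and were not tested as binding sites.

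In the genome (GRCm38) the 3 C1q genes lie side by side on the minus strand of chromosome 4, C1qb at 136880129 to 136886187, C1qc at 136889804 to 136893065 and C1qa at 136895917 to 136898803. C4b (chromosome 17, 34728380 to 34743882) and C3 (chromosome 17, 57203970 to 57228136) share a chromosome. C3ar1 lies on chromosome 6 (122847138 to 122856161), C5ar1 on chromosome 7 (16246743 to 16259540), Itgam on chromosome 7 (128062640 to 128118491) and Serping1 on chromosome 2 (84765387 to 84775444). All 9 are annotated as protein-coding genes.

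The first comparison asked which complement genes separated the CD45+ from the CD45- cells of the same tumors. Of the 9 genes, 7, the C1q chains, C3 and the 3 receptors, were higher in the CD45+ sorts, Serping1 was lower, and C4b passed in neither direction. C1qa stood at 4622, 3834 and 4639 CPM in the CD45+ sorts of the early, medium and late tumors, and at 319, 244 and 34.2 in the CD45- sorts. The lowest CD45+ value of C1qa thus lay far above the highest CD45- value. C3 stood at 10.2, 109 and 46.8 in the CD45+ sorts and at 1.6, 2.74 and 0.661 in the CD45- sorts, so it was low in the early tumor and its groups did not overlap either. Serping1 ran the other way, with 7.22, 9.66 and 3.9 in the CD45+ sorts against 55.6, 88.9 and 68.6 in the CD45- sorts. C4b was 10.5, 64.8 and 9.85 in the CD45+ sorts and 6.91, 89.8 and 66.3 in the CD45- sorts, and these groups overlapped.

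The fit was edgeR's quasi-likelihood test on summed counts with the tumor sample as a block, adjusted by Benjamini-Hochberg over 18433 genes, of which 20.4% were called higher and 25.7% lower in the CD45+ sorts. C1qa was higher by 5.24 ± 0.767 (log2 fold change ± SE; adjusted p = 0.00172), C1qb by 5.22 ± 0.775 (adjusted p = 0.00185) and C1qc by 5.14 ± 0.772 (adjusted p = 0.00193). C3 was higher by 5.15 ± 0.633 (adjusted p = 0.000834), C3ar1 by 5.11 ± 0.681 (adjusted p = 0.00116), C5ar1 by 5.61 ± 0.673 (adjusted p = 0.000762) and Itgam by 4.86 ± 0.664 (adjusted p = 0.00128). Serping1 fell by 3.00 ± 0.277 on the log2 scale (adjusted p = 0.000219). C4b differed by -0.47 ± 0.586 (adjusted p = 0.545) and was higher in the CD45+ sort of 1 of 3 tumors. The middle of the 9 log2 fold changes was that of C1qc, 5.14, and the median of all genes tested was -0.04. Ptprc, whose protein set the gate, differed by 5.11 ± 0.45. A sum over a sort moves both with the number of cells of a type and with the RNA per cell, which cannot be told apart at this level, and the 3 tumor samples also differ in stage.

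**Figure D1:**
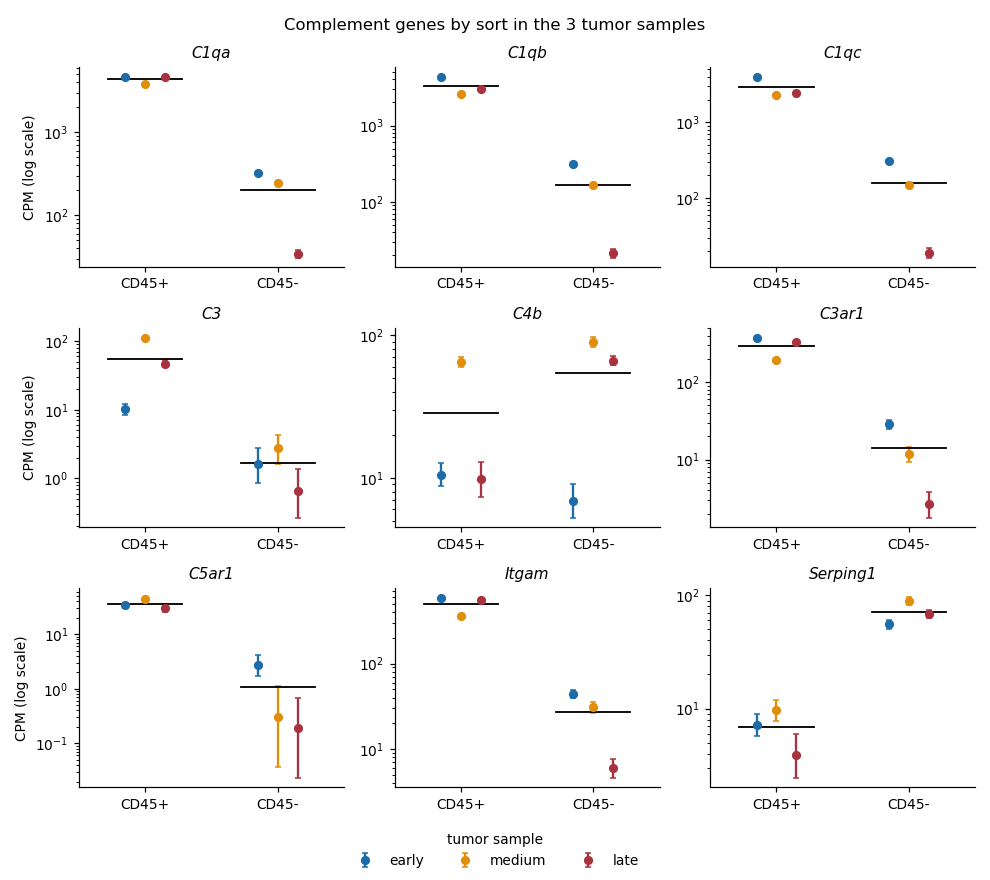
CPM (log axis) of the 9 complement genes in the CD45+ and CD45- sorts, 1 panel per gene. Each point is 1 tumor sample (early, medium or late) with its 95% counting interval and the line is their mean. The values of C4b overlap between the sorts, and Serping1 is higher in CD45-.

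Over the 3 tumors together, the C1q that was found in the CD45- sorts lay mostly in cells that looked like microglia. Cell classes were named from markers that held no complement gene, and the 9 genes were kept out of the clustering. The CD45- sorts held 345 microglia-like cells, 247, 70 and 28 of them from the early, medium and late tumors. These gave 10003 of the 12115 C1q chain UMIs of the CD45- sorts. Their level of 12399 ± 964 CPM (n = 3 tumor samples) was close to the 13396 ± 1834 of microglia-like cells in the CD45+ sorts. The decline of C1q in the whole CD45- sorts, from 944 through 561 to 74.5, went along with the decline in the number of such cells.

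Across the named classes, the 3 C1q chains were highest in 3 phagocyte classes. Their summed level was 13396 ± 1834 CPM in microglia-like cells, which carried the microglial markers P2ry12 and Tmem119. Border or perivascular macrophage-like cells, marked by Mrc1, Pf4 and Lyve1, had 12173 ± 1792. Macrophage or monocyte-like cells, named from a list of 14 genes that holds Lyz2 and Ccr2, had 10355 ± 2426. Of that list 4 genes passed in cluster 8 (787 cells), 4 in cluster 12 (491 cells) and 12 in cluster 17 (309 cells). The list summed to 10345 CPM in that class and to 7366 in border macrophage-like cells. The ranges of the 3 classes overlapped, at 11304 to 14725, 10356 to 13939 and 7826 to 12663. Microglia-like cells made up 33.8% of all cells and held 58.7% of all C1q chain UMIs, against 18.9% in the 5 unnamed clusters together, 14.5% in macrophage or monocyte-like and 4.3% in border macrophage-like cells.

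At an equal depth of 1000 UMIs per cell, 99.9% of microglia-like, 98.6% of border macrophage-like and 89% of macrophage or monocyte-like cells of the CD45+ sorts had a C1q UMI. Without thinning these shares were 99.9%, 99.1% and 90.4%, and the thinning left out 146 of 5670, 16 of 453 and 4 of 1580 cells. Oligodendrocyte-like cells were taken as the background, on the assumption that oligodendrocytes lack C1q. Oligodendrocyte-like cells of the CD45- sorts had a C1q UMI in 0.893% of cells (interval 0.573 to 1.33; 2.34% without thinning), and glioma or oligodendrocyte progenitor-like cells in 0.476%. Astrocyte-like cells stood at 2.65% (0.726 to 6.64) and fibroblast-like cells at 2.27% (0.742 to 5.22), intervals that overlap that of oligodendrocyte-like cells, and endothelial-like cells at 4.28% (2.3 to 7.2). As levels, astrocyte-like cells stood at 45.3 ± 56.5 CPM, fibroblast-like cells at 40.2 ± 65.9, endothelial-like cells at 66 ± 51.2 and oligodendrocyte-like cells at 10.2 ± 9.89. With cells of the 3 tumors pooled, the shares did not set astrocyte-like and fibroblast-like clusters apart from oligodendrocyte-like cells. The source of their C1q was not tested. For astrocyte-like cells this depended on how cells were classed, since C1qa, C1qb and C1qc were called higher in them than in oligodendrocyte-like cells where each cell took its class from its own markers (C1qa 5.79 on the log2 scale, edgeR, adjusted p = 0.00107). In endothelial-like cells 11 of the 13 cells with a UMI came from the early tumor, and the microglial markers there summed to 30.4 to 249 CPM against 79 to 105 in oligodendrocyte-like cells. The part of free RNA in this was not tested.

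This background was higher in the CD45+ sorts. There 19.4% of the 67 oligodendrocyte-like cells deep enough for the thinning had a C1q UMI (interval 10.8 to 30.9). Neutrophil-like cells at 21.1%, B cell-like cells at 23.3% and plasmacytoid dendritic cell-like cells at 18% stood near that share. Their levels were 2244 ± 1427, 1330 ± 973 and 1832 ± 2098 CPM, against 981 ± 381 in the oligodendrocyte-like cells. Other classes of these sorts were lower, so this reading depended on the class taken as background. Glioma or oligodendrocyte progenitor-like cells had 695 ± 562 CPM, with C1qa in 8.67% of cells (4.7 to 14.4). Mast cell-like cells had 67.1 ± 96.2, with C1qa in 4.49% (1.24 to 11.1). C1qa was found in 17.1% of neutrophil-like cells (13.2 to 21.7). T cell-like cells were above the oligodendrocyte-like share, at 40.5% (interval 37 to 44) and 3050 ± 1567 CPM. Against 26.5% of the oligodendrocyte-like cells without thinning, 45.9% of T cell-like cells had a C1q UMI. Their 3 tumor samples stood at 2751, 4745 and 1655. The shares of cells were read over all tumors together. Of the 67 oligodendrocyte-like cells 49 were early, while 394 of the 798 T cell-like cells were medium. In the early tumor alone, C1qa was found in 29.7% of T cell-like (24.6 to 35.3) and 32.7% of neutrophil-like cells (20.3 to 47.1). For oligodendrocyte-like cells it was 20.4% (10.2 to 34.3). These early intervals overlapped. In the medium tumor alone, C1qa was found in 40.4% of T cell-like cells (35.5 to 45.4). Neutrophil-like cells stood there at 14.1% (10 to 19.1) and B cell-like cells at 18.3% (13.4 to 24.2), both apart from T cell-like cells. In the late tumor the intervals of T cell-like (15.6 to 32.2) and neutrophil-like cells (4.19 to 33.7) overlapped. Oligodendrocyte-like cells of this sort were too few for a share in the medium and late tumors. The 12 microglial markers summed to 2122 to 3813 CPM in those T cell-like cells, against 19303 to 21802 in microglia-like cells. C1q UMIs per microglial marker UMI were 1.14 in T cell-like, 0.656 in microglia-like, 2.76 in macrophage or monocyte-like and 0.639 in oligodendrocyte-like cells of the same sort. The part of free RNA and of joined cells in the C1q of T cell-like cells was not tested.

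**Figure D2:**
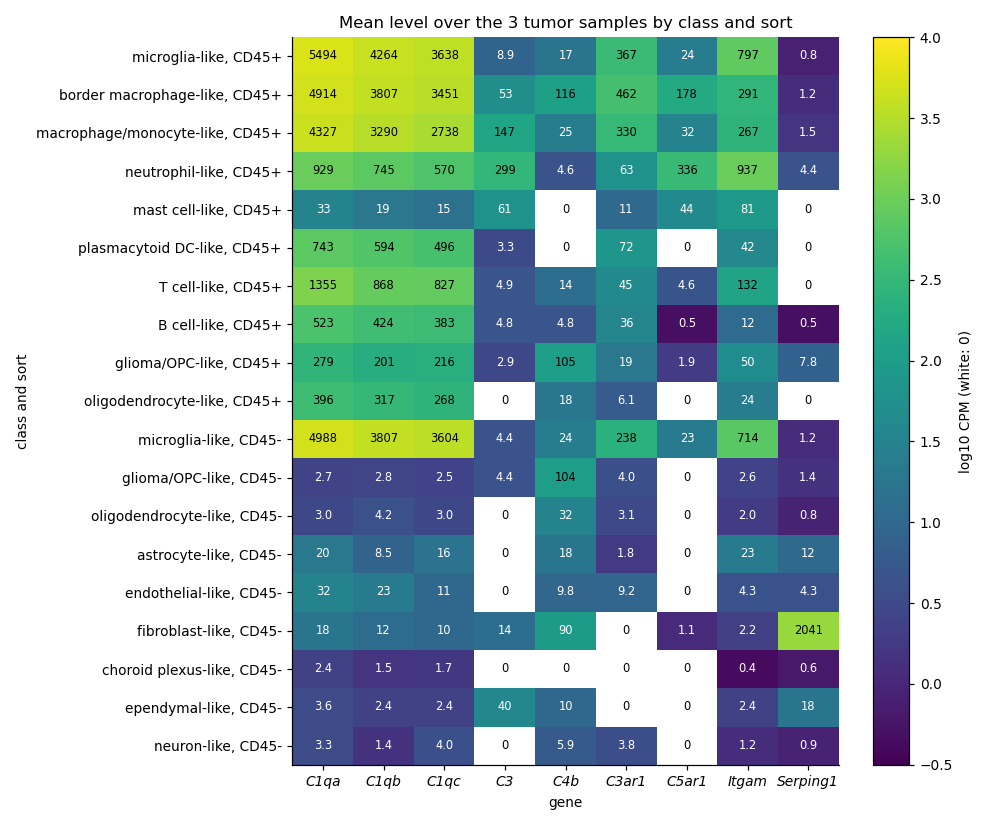
Heat map of log10 CPM (mean of 3 tumor samples) of the 9 complement genes in 19 combinations of cell class and sort, with white for a level of 0. The C1q chains, C3ar1 and Itgam are high in the phagocyte classes. C3 is high in neutrophil-like, macrophage or monocyte-like and border macrophage-like cells. Its mean in mast cell-like cells (61.4 ± 106) includes a level of 0 and as few as 4 cells in a stage. C5ar1 is high in neutrophil-like and border macrophage-like cells, and Serping1 in fibroblast-like cells.

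The genes whose levels followed the summed C1q chains most closely over 21 class and sort profiles were, among 11338 genes with at least 500 UMIs, Aif1, Ctss, Ly86, Bcl2a1b and Trem2. Pearson's r of log2(CPM + 1) was 0.99 for Aif1 (the cytoskeletal protein IBA1), 0.989 for Ctss (the protease cathepsin S) and 0.982 for Ly86 (MD-1, a partner of an innate immune receptor). It was 0.979 for Bcl2a1b (a survival factor of the Bcl2 family) and 0.976 for Trem2 (a lipid receptor of microglia and macrophages). Of the other members, C3ar1 reached 0.93, Itgam 0.899, C5ar1 0.737, C3 0.515, C4b 0.166 and Serping1 -0.265. These values describe profiles that share libraries and depth.

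Among phagocytes, no C1q chain was called different between the classes, in fits that could miss such differences. On simulated counts, 39% of genes changed by a log2 fold of 1 were called in the border macrophage-like fit. In the macrophage or monocyte-like fit it was 55%. Border macrophage-like and macrophage or monocyte-like cells were compared with microglia-like cells of the same CD45+ sorts, as summed counts per tumor sample. In border macrophage-like cells (263, 126 and 64 cells), C1qa stood at 4873, 4995 and 4875 CPM against 5261, 5964 and 5256 in microglia-like cells. The log2 difference of C1qa was -0.11 ± 0.116 (adjusted p = 0.582), although its groups did not overlap, and those of C1qb and C1qc were -0.12 and -0.04. Macrophage or monocyte-like cells (120, 1000 and 460 cells) differed from microglia-like cells by -0.27 for C1qa (adjusted p = 0.364), -0.21 for C1qb and -0.24 for C1qc. C1qa ran from 2616 through 4486 to 5880 in these cells, so the early and the medium tumor lay below the range of the microglia-like values and the late tumor within it.

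The macrophage or monocyte-like class was made of different clusters in each stage. Cluster 17, led by Ly6i and Ms4a4c, held 61 of its 120 early cells, cluster 8, led by Cxcl9, held 729 of its 1000 medium cells, and cluster 12, led by Arg1 and Gpnmb, held 419 of its 460 late cells. Cluster 17 had 3857 C1q CPM over all its cells, cluster 8 had 12603 and cluster 12 had 13100. Cluster 17 was thus low, while clusters 8 and 12 were within the range of the microglia-like tumor samples. Unnamed cluster 4, led by Cst7, Cxcl13 and Spp1, had 16205, and microglia-like clusters 0, 1, 2 and 11 had 13369, 14137, 13749 and 16246. Unnamed cluster 26, led by the cell division genes Mki67 and Cenpe, had 10383, and unnamed cluster 20, led by the dendritic cell genes Xcr1 and Cd209a, had 2373.

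**Figure D3:**
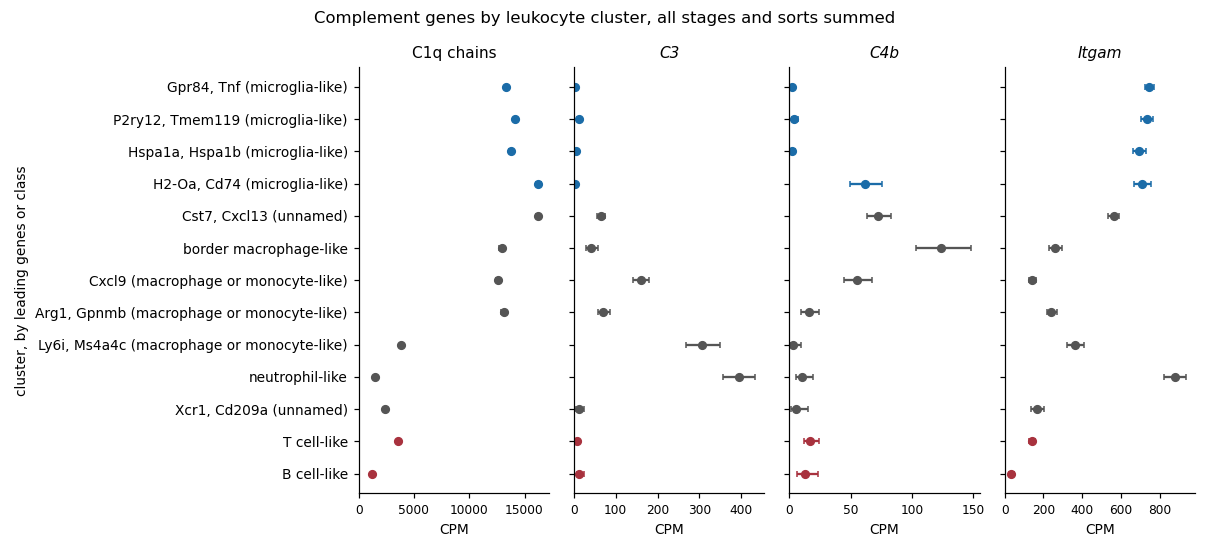
CPM, summed over all cells, of the C1q chains, C3, C4b and Itgam in 13 leukocyte clusters, with 95% counting intervals. Blue marks microglia-like clusters, red T and B cell-like clusters and grey the others; C1q is high in every microglia-like cluster, C3 in neutrophil-like cluster 16 and cluster 17, and C4b in the border macrophage-like cluster (124), followed by clusters 4, 11 and 8.

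The 3 chains of C1q did not move together between stages. In microglia-like cells of the CD45+ sorts, C1qa stood at 5261, 5964 and 5256 CPM across the early, medium and late tumors, C1qb at 4925, 4600 and 3267, and C1qc at 4539, 3595 and 2780. C1qa was thus at the same level early and late, while C1qb and C1qc were lowest late. The late over early log2 ratio was -0.00 for C1qa (interval -0.03 to 0.03), -0.59 for C1qb (-0.63 to -0.55) and -0.71 for C1qc (-0.75 to -0.67).

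The same order of the chains held in the other phagocyte classes. In border macrophage-like cells the late over early log2 ratio was 0.00 for C1qa (interval -0.12 to 0.12), -0.64 for C1qb and -0.83 for C1qc. In macrophage or monocyte-like cells it was 1.17 for C1qa (1.06 to 1.28), 0.42 for C1qb and 0.33 for C1qc. Within sequencing runs 1, 2 and 3 the ratio in microglia-like cells was 0.16, -0.18 and 0.12 for C1qa, -0.70, -0.58 and -0.59 for C1qb, and -0.65, -0.87 and -0.59 for C1qc. In the separate CD45- libraries, microglia-like cells had 4282, 5499 and 5183 CPM of C1qa and 4186, 3674 and 2950 of C1qc, the late value resting on 28 cells. With 1 tumor sample per stage, stage and tumor cannot be told apart.

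The summed C1q chains in microglia-like cells were 14725, 14158 and 11304 CPM across the early, medium and late tumors. Late over early was -0.38 on the log2 scale (interval -0.40 to -0.36), and -0.37, -0.50 and -0.29 within runs 1, 2 and 3. The late level was the lowest in clusters 0, 1 and 2 alike, at 13976, 12296 and 10771 in cluster 0, at 15180, 14061 and 11813 in cluster 1 (led by P2ry12 and Tmem119) and at 14743, 12496 and 11101 in cluster 2 (led by the heat shock genes Hspa1a and Hspa1b). The medium level was below the early one in each of these 3 clusters, and in cluster 11 it was 15507 against 17444. Cluster 11 was the highest of the 4 in both tumors and held 287 of the 3982 early and 366 of the 740 medium microglia-like cells, with 4 late cells over both sorts. The makeup of the class by cluster thus differed between the tumors, and its part in the class levels was not tested. In macrophage or monocyte-like cells the summed chains stood at 7826, 10577 and 12663, late over early 0.69 on the log2 scale (0.78 and 0.63 within runs 2 and 3). Within their clusters, cluster 8 went from 14002 (39 cells) to 12527 between the early and the medium tumor. Cluster 12 stood at 16684 (20 cells), 10746 and 13284, and cluster 17 at 1739, 4686 and 2082. The makeup of the class by cluster moved with its level, and its part was not tested.

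C4b encodes the fourth component, cleaved by the C1 complex. It differs from the near-identical copy C4a by few bases, so the counts of these 2 genes are uncertain. The CD45+ and CD45- values of C4b overlapped, and C4b passed in neither direction between the sorts. Glioma or oligodendrocyte progenitor-like cells of both sorts held 35.2% of all C4b UMIs and the 5 unnamed clusters 30.8%. In the CD45- sorts they had 104 ± 79.6 CPM, with 17.5, 174 and 122 in the early, medium and late tumors, and in the CD45+ sorts 152 cells of that class had 105 ± 144. Border macrophage-like cells had 116 ± 57.9, fibroblast-like cells 89.7 ± 62.9, oligodendrocyte-like cells 32.5 ± 24.1, macrophage or monocyte-like cells 25.2 ± 16.9, astrocyte-like cells 17.9 ± 16.3 and microglia-like cells 17.1 ± 21.9. The spread between tumors was about as large as the mean in several of these classes.

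At 1000 UMIs per cell, 11.7% of border macrophage-like, 8.57% of glioma or oligodendrocyte progenitor-like, 5.45% of fibroblast-like, 3.3% of macrophage or monocyte-like, 1.38% of oligodendrocyte-like and 0.959% of microglia-like cells had a C4b UMI. Choroid plexus-like cells had none. Without thinning the share was 27.9% of glioma or oligodendrocyte progenitor-like, 18.3% of border macrophage-like and 17.7% of fibroblast-like cells, so the order of these classes moved with depth. Among the tumor-side clusters, C4b was 150 CPM in cluster 6, in which 762 of 960 cells had a UMI of the human EGFR transgene. It was 55.1 in cluster 19, where 12 of 295 cells did, and 81.8 in unnamed cluster 9, led by Pth2r and Tnc, where 685 of 786 cells did. Cluster 6 held 47 early, 332 medium and 581 late cells over both sorts. The glioma or oligodendrocyte progenitor-like class held 172 early cells in the CD45- sorts alone. The makeup of that class by cluster thus differed between the tumors, and its part in the class levels was not tested. Of the oligodendrocyte-like clusters, C4b was 46.5 in cluster 10, led by Klk6 and Hapln2, and 17.7 and 13.5 in clusters 3 and 5.

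C4b separated border macrophage-like cells from those named microglia-like, which left out unnamed cluster 4. It stood at 120, 172 and 56.3 CPM in border macrophage-like cells and at 4.64, 42.3 and 4.27 in microglia-like cells, and every border value was above every microglia value. The difference was 3.45 ± 0.459 on the log2 scale (edgeR, adjusted p = 1.44e-05), and 1.93 (adjusted p = 0.296) where each cell took its class from its own markers. Without the tumor sample as a block it was 3.25 with an adjusted p of 0.154. Macrophage or monocyte-like against microglia-like cells gave 0.92 ± 0.417 (adjusted p = 0.114).

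In the phagocyte classes C4b was highest in the medium tumor. In microglia-like cells the medium over early log2 ratio was 3.19 (interval 2.57 to 3.82) and the late over early ratio was -0.12. The medium over early ratio was 2.91 and 3.54 within runs 2 and 3. The microglia-like clusters shared this unevenly: cluster 11, led by the antigen presentation genes H2-Oa and Cd74, had 61.5 C4b CPM over all its cells, against 2.26, 3.96 and 1.92 in clusters 0, 1 and 2. Cluster 11 held 287 of the 3982 early and 366 of the 740 medium microglia-like cells, and C4b within it was 43 early (28.3 to 62.5) and 75 medium (56 to 98.4). The name of this cluster depended on the doublet setting: without the 5% of cells with the highest doublet scores, the 679 cells of the cluster led by H2-Oa had no class name. Microglia-like cells of the medium tumor were then 394 instead of 740, and the C4b log2 ratios in the class were 2.23 medium over early, 1.65 late over early and -0.58 late over medium. In unnamed cluster 4, C4b was 3.06, 121 and 3.19 in the early, medium and late tumors.

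In oligodendrocyte-like, tumor and fibroblast-like cells C4b was lowest in the early tumor. In oligodendrocyte-like cells it stood at 6.54, 54.1 and 36.8 CPM, medium over early 3.05 (interval 2.40 to 3.74) and late over early 2.49 (1.81 to 3.22) on the log2 scale. Within runs 1, 2 and 3 the medium over early ratio was 5.10, 1.96 and 4.03. Cluster 10 alone went from 5.88 to 90.8 and 57.6, and tumor cluster 6 from 25.4 to 197 and 123. Cluster 6 had only 47 early cells over both sorts, so its early value rested on few cells. Fibroblast-like cells stood at 33.6, 77.7 and 158, and late over medium was -0.18 on the log2 scale where each cell took its class from its own markers. C4a, the near-identical copy, was 3.46, 34 and 19.3 in the CD45- sorts, the same order as C4b there.

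**Figure D4:**
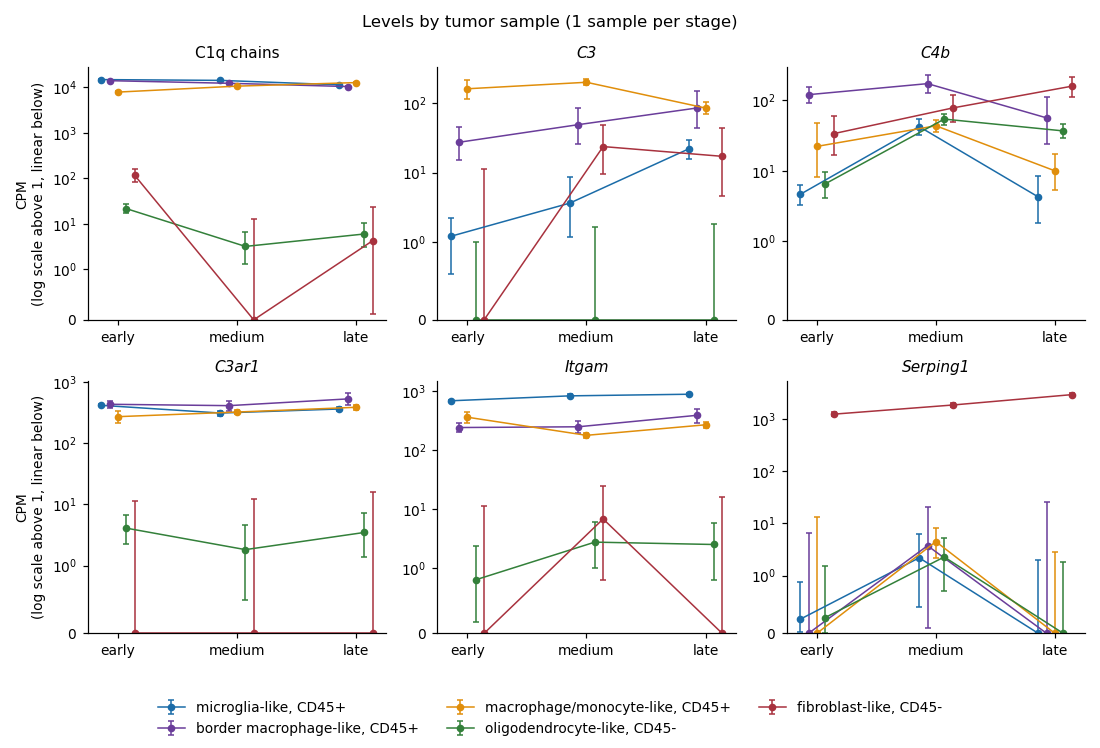
CPM by stage (symmetric log axis) of the C1q chains, C3, C4b, C3ar1, Itgam and Serping1 in 5 cell classes, with 95% counting intervals and 1 tumor sample per stage. C4b is highest in the medium tumor in every class drawn but the fibroblast-like one, and Serping1 is above 1000 in fibroblast-like cells of every stage.

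C3, the component on which all pathways meet, lay mostly outside the microglia-like class. Macrophage or monocyte-like cells held 40.6% of all C3 UMIs. Neutrophil-like cells held 27.7% although they were 1.84% of the cells, the 5 unnamed clusters held 14.8% and microglia-like cells 4.19%. Among the unnamed, cluster 4, which had 16205 C1q CPM, held 196 C3 UMIs, against 61 in microglia-like cells. Neutrophil-like cells had 299 ± 131 CPM, with 186, 443 and 266 in the early, medium and late tumors. Macrophage or monocyte-like cells had 147 ± 57.4, border macrophage-like cells 53.4 ± 28.9 and microglia-like cells 8.92 ± 11.3. At 1000 UMIs per cell, 23.9% of neutrophil-like, 12.6% of macrophage or monocyte-like, 3.43% of border macrophage-like and 0.344% of microglia-like cells had a C3 UMI, and without thinning it was 46%, 19.7%, 6.4% and 0.617%. By cluster, C3 was 394 in neutrophil-like cluster 16, 307 in cluster 17, 160 in cluster 8, 70.6 in cluster 12 and 64.5 in unnamed cluster 4. Mast cell-like cluster 27, which also carried the granulocyte progenitor genes Elane and Mpo, had 165.

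C3 was not detected in astrocyte-like, oligodendrocyte-like, endothelial-like, choroid plexus-like or neuron-like cells of the CD45- sorts. For oligodendrocyte-like cells this was 0 of 7880878 UMIs, which allows up to 0.468 CPM. The limits were 1.64 in choroid plexus-like, 2.04 in neuron-like, 6.42 in endothelial-like and 9.65 in astrocyte-like cells, whose 0 of 382161 UMIs therefore did not place them below the 8.92 of microglia-like cells. Ependymal-like cells had 2, 4 and 3 C3 UMIs in the early, medium and late tumors (22.3 CPM over 121 cells, interval 10.2 to 42.3), and fibroblast-like cells had 0, 7 and 4 (13.6 ± 12.2). The 167 astrocyte-like cells also held the oligodendrocyte markers at 4770 and the progenitor markers at 3030 CPM, beside 20593 for their own, so this class was not free of other glial RNA.

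C3 was higher in border macrophage-like than in microglia-like cells, at 27.2, 48.6 and 84.4 CPM against 1.22, 3.65 and 21.9. The log2 difference was 3.27 ± 0.538 (edgeR, adjusted p = 1.67e-05), and without the block it was 2.73 with an adjusted p of 0.218. In macrophage or monocyte-like cells C3 stood at 159, 197 and 84.2, and every value was above every microglia value. That difference, 4.58 ± 1.43, did not pass (adjusted p = 0.154). It passed without the late tumor (6.63, adjusted p = 8.73e-07), with DESeq2 (5.18, adjusted p = 0.000252), without the block (4.50, adjusted p = 0.0412) and with the cells of the highest doublet scores removed (4.71, adjusted p = 0.00723), while the adjusted p of the other alternatives lay between 0.106 and 0.371.

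The late microglia-like level of C3 came from few cells. It rested on 41 UMIs among 948 cells, of which 33 UMIs lay in 17 of the 375 late cells of cluster 1. The late over early log2 ratio was 4.16 (interval 3.14 to 5.33), against 10 UMIs in the early tumor, and it was 4.16 and 3.95 within runs 2 and 3. In border macrophage-like cells late over early was 1.63, and in macrophage or monocyte-like cells it was -0.92.

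Serping1, the inhibitor of the C1 proteases, was a gene of the fibroblast-like cells, marked by Dcn and Lum. These 1.37% of the cells held 1806 of the 1952 Serping1 UMIs (92.5%) and had 2041 ± 872 CPM. Ependymal-like cells had 17.7 ± 19.9, astrocyte-like cells 11.5 ± 10.9 and microglia-like cells 0.811 ± 1.2. At 1000 UMIs per cell 58.2% of fibroblast-like cells had a Serping1 UMI (interval 51.4 to 64.8; 80.5% without thinning), against 0.0181% of microglia-like cells. Unnamed cluster 24, led by the mural cell genes Rgs5 and Kcnj8, had 177.

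In fibroblast-like cells Serping1 stood at 1257, 1884 and 2981 CPM across the early, medium and late tumors, from 99, 64 and 57 cells. Late over early was 1.25 on the log2 scale (interval 1.07 to 1.43), with 1.24, 0.56 and 1.37 within runs 1, 2 and 3. The medium over early ratio was 0.58 over all runs, and it was -0.77, 0.56 and 1.13 within the 3 runs. Where each cell took its class from its own markers the late over early ratio was -1.71, so the direction of this difference depended on which cells were called fibroblast-like.

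The receptors divided the phagocytes differently. C3ar1, the receptor of C3a, was present at similar levels in all 3 classes, at 462 ± 63.6 CPM in border macrophage-like, 367 ± 53.2 in microglia-like and 330 ± 58.3 in macrophage or monocyte-like cells. Neutrophil-like cells had 63.4. Border macrophage-like cells stood at 437, 415 and 535 against 420, 314 and 366 in microglia-like cells, a log2 difference of 0.37 ± 0.161 (adjusted p = 0.113). For macrophage or monocyte-like cells (274, 326 and 390) it was 0.01 (adjusted p = 0.971). Within the microglia, C3ar1 was 505 in cluster 0 (led by Gpr84 and Tnf), 420 in cluster 1, 243 in cluster 11 and 235 in cluster 2. Microglia-like cells held 60.2% of the C3ar1 UMIs.

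C5ar1, the receptor of C5a, was highest in neutrophil-like cells, with 331, 250 and 426 CPM across the early, medium and late tumors. Border macrophage-like cells stood at 200, 157 and 176 and microglia-like cells at 22.1, 29.9 and 20.3, so the groups were far apart. The log2 difference of border macrophage-like from microglia-like cells was 2.97 ± 0.268 (edgeR, adjusted p = 7.07e-11). Macrophage or monocyte-like cells stood at 48.1, 26.4 and 21.6 and differed from microglia-like cells by 0.43 (adjusted p = 0.352). At 1000 UMIs per cell, 24.5% of neutrophil-like, 14.2% of border macrophage-like, 2.35% of macrophage or monocyte-like and 1.68% of microglia-like cells had a UMI, and without thinning it was 45.1%, 22.7%, 4.43% and 3.4%. No C5ar1 UMI was found in astrocyte-like, oligodendrocyte-like, endothelial-like or glioma or oligodendrocyte progenitor-like cells of the CD45- sorts.

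Itgam, the alpha chain of complement receptor 3, was highest in neutrophil-like cells (937 ± 146 CPM) and microglia-like cells (797 ± 103). It was lower in both macrophage classes. It stood at 240, 247 and 387 in border macrophage-like and at 359, 177 and 267 in macrophage or monocyte-like cells, against 682, 827 and 881 in microglia-like cells. The groups did not overlap. Itgam fell by 1.44 ± 0.162 on the log2 scale in border macrophage-like cells (edgeR, adjusted p = 1.12e-08) and by 1.50 ± 0.208 in macrophage or monocyte-like cells (adjusted p = 9.31e-05). In the clusters of the latter it was 363 in cluster 17, 241 in cluster 12 and 142 in cluster 8, and unnamed cluster 4 had 561. Late over early, Itgam was 0.37 in microglia-like cells, 0.69 in border macrophage-like cells and -0.43 in macrophage or monocyte-like cells. The last 2 directions depended on how cells were classed, being -0.08 and 0.52 where each cell took its class from its own markers, and the last was 0.22 within run 1.

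Of the 8 members tested in border macrophage-like against microglia-like cells, 3 were called higher (C3, C4b and C5ar1) and 1 lower (Itgam), where 9.56% of the 9312 genes tested were higher and 9.41% lower. C3 (1.22, 3.65 and 21.9 CPM) and C4b (4.64, 42.3 and 4.27) were low in most microglia-like sums. They could pass the count filter mainly through the border macrophage-like cells, so the count of 3 was partly set by that filter. The middle pair of log2 differences was that of C1qc and C3ar1, -0.04 and 0.37. In macrophage or monocyte-like against microglia-like cells 0 of 8 were called higher and 1, Itgam, lower, where 15.2% of 10970 genes were higher and 12.5% lower, and the middle pair was C1qb and C3ar1, -0.21 and 0.01. At an unadjusted p under 0.05 edgeR gave 1 higher, C4b. DESeq2 called 1 higher, C3, and 1 lower, Itgam, where it called 9.76% of genes higher and 6.87% lower. Serping1 had too few UMIs in phagocytes to be tested.

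**Figure D5:**
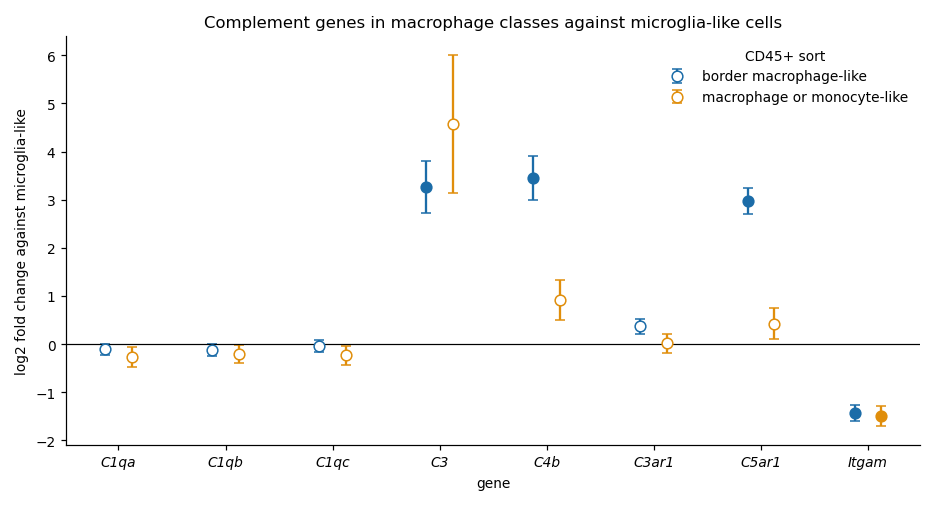
Log2 fold change (± SE) of 8 complement genes in border macrophage-like and in macrophage or monocyte-like cells against microglia-like cells of the same 3 tumor samples. Filled points passed the test; Itgam is lower in both classes, and C3, C4b and C5ar1 pass in border macrophage-like cells only, a difference between the classes that was not itself tested.

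Between the astrocyte-like (85, 55 and 27 cells) and oligodendrocyte-like cells (1378, 660 and 698 cells) of the CD45- sorts, C4b was the 1 member with enough UMIs for a test. It stood at 21.8, 31.9 and 0 CPM in astrocyte-like and at 6.54, 54.1 and 36.8 in oligodendrocyte-like cells, and the difference was -0.39 ± 0.749 (edgeR, adjusted p = 0.782). Of all 10167 genes tested, 11.3% were higher and 12.6% lower in astrocyte-like cells. No member was called there by edgeR, and none had an unadjusted p under 0.05. Where each cell took its class from its own markers, edgeR tested 6 members and called 5 higher in astrocyte-like cells, namely C1qa (5.79, adjusted p = 0.00107), C1qb, C1qc, Itgam and Serping1, where 11.5% of the 11702 genes of that fit were higher and 11.1% lower, so the calls on glial cells depended on how cells were classed. DESeq2 tested 6 members and called 0, with 1 at an unadjusted p under 0.05, where it called 9.65% of genes higher and 7.47% lower.

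The wider complement system was followed through a list of 46 further genes of the table. A total of 27 had at least 100 UMIs, 19 had fewer, and 7 of these were at 0: Mbl1, Mbl2, Colec10, Cfd, C7, C8b and C9. In the sort comparison 27 genes of the list were tested, 11 higher and 6 lower in the CD45+ sorts, where 20.4% of all genes tested were higher and 25.7% lower, and the middle log2 fold change was that of C1ra, 0.81. Values given for these genes are mean ± SD CPM in the CD45+ and then the CD45- sorts (n = 3 tumor samples each).

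Among the partners of the members, Itgb2, the beta chain of complement receptor 3, stood at 358 ± 21.8 against 11.8 ± 8.03 (log2 fold change 5.59, adjusted p = 0.000448). Itgax, the alpha chain of complement receptor 4, stood at 123 ± 74.7 against 3.26 ± 3.03 (5.63, adjusted p = 0.00327). Both were higher in the CD45+ sorts, as was Cd93, once described as a C1q receptor, at 29.9 ± 8.84 against 21.4 ± 6.98 (0.86, adjusted p = 0.00865), whose highest class level was in endothelial-like cells (540). C5ar2, a second C5a receptor, at 23.4 ± 4.96 against 19.5 ± 7.36, and C1qbp, a C1q-binding mitochondrial protein, at 73.2 ± 6.42 against 92.5 ± 20.2, did not pass.

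Of the early proteases and components, C1s1 was lower in the CD45+ sorts, at 1.57 ± 1.77 against 4.92 ± 3.17 (-1.49, adjusted p = 0.0298), with 63 CPM in fibroblast-like cells. C1ra at 3.51 ± 1.81 against 2.68 ± 1.78 and C1rb at 4.24 ± 3.15 against 2.53 ± 1.12 did not pass, and both had their highest class level in fibroblast-like cells (32.6 and 31.5). C1ra and C1rb are near-identical copies, as are C1s1 and C1s2, so reads could be split between them. C2, the protease that joins C4b, was 4.8 ± 3.55 against 3.27 ± 2.85 (adjusted p = 0.0516), and C4a was 8.62 ± 8.98 against 18.9 ± 15.3 (adjusted p = 0.358). Hc, which encodes C5, was 0.223 ± 0.0483 against 4.25 ± 4.25 with 107 UMIs in all and was not tested. Of its UMIs 78.5% lay in ependymal-like cells.

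Of the lectin pathway, Fcnb stood at 36.2 ± 59.3 against 0 and Fcna at 7.98 ± 3.38 against 0.228 ± 0.249 (both ficolins, pattern-recognition proteins), and both were called higher in the CD45+ sorts. Fcnb stood at 1.2, 105 and 2.79 in the CD45+ sorts of the early, medium and late tumors, so its mean rested on the medium tumor. With no UMI in the CD45- sorts, Fcnb could enter the test only through the CD45+ sorts, and its direction was fixed by that. Mast cell-like and neutrophil-like cells held 67.2% and 32.7% of the Fcnb UMIs, and border macrophage-like cells held 88% of the Fcna UMIs. The mast cell-like class was cluster 27, led by the granulocyte progenitor genes Elane and Mpo beside mast cell genes. Without the 5% of cells with the highest doublet scores, a cluster of 164 cells led by Elane and Mpo was named neutrophil-like. No cluster was then named mast cell-like, so the split of Fcnb depended on this naming. Colec12, a scavenger receptor with a collectin domain, was 62.3 ± 13.7 against 15 ± 8.18 (2.57, adjusted p = 0.00239). Masp1, the lectin pathway protease, was 16.7 ± 0.68 against 9.76 ± 2.38 (1.16, adjusted p = 0.00915). Of the alternative pathway, Cfb (factor B) was 15.3 ± 21.7 against 1.25 ± 0.767 (3.19, adjusted p = 0.00948) and Cfp (properdin) was 29.1 ± 15.2 against 2.11 ± 0.821 (4.00, adjusted p = 0.00108). Cfb stood at 1.39, 40.3 and 4.09 in the CD45+ sorts, again highest in the medium tumor. Macrophage or monocyte-like cells held 58.1% of the Cfb UMIs.

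The regulators were found on both sides of the gate. Cr1l, which limits C3 convertases, was higher in the CD45+ sorts, at 57.7 ± 5.73 against 32.3 ± 0.329 (edgeR, adjusted p = 0.00171). The soluble regulators Clu (clusterin), at 10.3 ± 5.83 against 240 ± 127 (-4.14, adjusted p = 0.000859), and Vtn (vitronectin), at 4.14 ± 3.01 against 67.8 ± 34.5 (-3.74, adjusted p = 0.000171), were lower in the CD45+ sorts. So were the membrane regulators Susd4 (2.61 ± 1.22 against 21.5 ± 10.3), Csmd1 (1.75 ± 0.262 against 10.4 ± 2.19) and Cd59a (36 ± 10 against 160 ± 14.6). Clu was 2051 in astrocyte-like and 2523 in ependymal-like cells, and Susd4 had 66.1% of its UMIs in glioma or oligodendrocyte progenitor-like cells. Cd46 (1.48 ± 0.819 against 3.85 ± 2.25), Cd55 (4.65 ± 0.807 against 10.1 ± 7.86) and Cd59b (4.43 ± 1.44 against 5.97 ± 2.53) did not pass.

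Within the phagocytes, 15 genes of the wider list were tested in border macrophage-like against microglia-like cells, with 7 higher and 2 lower and a middle log2 difference of 0.39, that of Cr1l, where 9.56% of all genes were higher and 9.41% lower. The 7 were Fcna, C6, Cfp, C2, Cd93, C4a and Colec12. C6 had 31 UMIs over all kept cells, and Fcna had 209, found mostly in border macrophage-like cells. The count of 7 was thus partly set by which genes could pass the count filter. Cfp was higher by 7.24, C2 by 4.99, Cd93 by 4.58, C4a by 3.80 and Colec12 by 2.50 on the log2 scale. Itgb2 fell by 0.58 (edgeR, adjusted p = 0.0253) and Masp1 by 1.85 (adjusted p = 0.0309). In macrophage or monocyte-like against microglia-like cells 13 were tested, 3 were higher and 1 lower, where 15.2% of all genes were higher and 12.5% lower, and the 3 were Cfp (6.17), Cd93 (3.05) and Itgax (2.07). In astrocyte-like against oligodendrocyte-like cells 8 were tested, and 2 were higher, Clu (7.01) and Masp1 (1.93), where 11.3% of all genes were higher and 12.6% lower. None of the 8 was lower by edgeR, 0 also at an unadjusted p under 0.05, and DESeq2 called 0 lower.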

How the data were processed

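Viable CD45+ and CD45- cells of 3 mouse glioma samples were encapsulated by inDrop. RapMap, run in bcbio-nextgen by the authors, placed the reads on GRCm38 transcripts and transgenes (mm10 in the submitters' processing notes). Cells were called against empty droplets, and the authors deposited raw UMI counts per gene and cell. The library annotation deposited by the authors (unit: other) gives run, sort and stage as text. The stage called late here is labelled large there. Whether the ambient RNA and doublet removal that the methods state preceded the table is not given in the sources used here. The 9 genes and the wider list were chosen with earlier results of these data known.

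The 3 deposited samples are runs, so a cell took its sort and stage from its library. Cells were kept at 500 UMIs, 500 genes and at most 20% mitochondrial UMIs. Scrublet (scanpy 1.11.5, expected rate 6%) marked 113 of 17786 cells (0.635%) as doublets to be dropped and skipped 2 small libraries. The other cells were clustered without complement genes (Leiden, leidenalg 0.10.2, 2000 variable genes, 40 components, 20 neighbours, resolution 1) into 32 clusters. A cluster took a class name from at least 3 markers 2-fold higher than in other cells and present in 10% of its cells; 5 clusters with 2395 cells stayed unnamed. Shares of cells were taken after thinning each cell to 1000 UMIs, which left out 146 of 5670 CD45+ microglia-like cells.

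Counts were summed per tumor sample and sort or class and fitted with edgeR 4.0.16 (R 4.3.3; TMM, filterByExpr, robust quasi-likelihood F test, two-sided, adjusted p threshold 0.05), and SE is the log2 fold change divided by the square root of F. Tumor sample was the block, since the groups compared came from the same tumor, and the correlations of same-numbered deviations were 0.384, 0.28 and 0.302 for the sorts, 0.126, 0.232 and 0.254 for macrophage or monocyte-like, 0.148, 0.111 and 0.105 for border macrophage-like and 0.138, 0.0661 and 0.0947 for astrocyte-like cells. On simulated sort counts 19% of genes changed by a log2 fold of 1 and 97% of those changed by 2 were called. Alternatives were DESeq2 1.42.0, library totals, count filters, doublet settings, class per cell, shared barcodes counted once (chosen after seeing the data), and leaving out tumors, libraries or runs. All 9 members, the genes of the wider list with at least 100 UMIs and the 5 genes most like C1q are named, except that 1 gene of the wider list and 1 allele of the mice are not reported here. Promoters came from RefSeq (GRCm38.p6).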

Additional observations from a re-analysis of the deposited data

How the results depend on the processing

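The sort calls on the 9 genes held under every alternative, C4b, which was not called, being -1.08 to 0.40 without 1 replicate. Against microglia-like cells, the members called higher in macrophage or monocyte-like cells were 0 in the fit as reported, where 15.2% of all genes were higher. With DESeq2 it was 1, where 9.76% were higher. It was 1 with no replicate block, 2 without the 5% of cells with the highest doublet scores, and 0 to 1 without 1 replicate. In border macrophage-like cells the members called higher were 3, where 9.56% of all genes were higher, and 1 with no replicate block. C4b was also not called there where each cell took its class from its own markers. In astrocyte-like cells they were 0, and 5 with class per cell, where 11.5% of all genes were higher. The share of all genes is not set beside the other counts. The number of all genes called also moved between fits, so these counts were not read as results about the members. Genes called lower in border macrophage-like cells were 876, and 511 with DESeq2. Without 1 replicate, genes higher ran from 707 to 1915 and lower from 514 to 1695 in macrophage or monocyte-like cells, and from 731 to 1032 and 698 to 978 in astrocyte-like cells. With library totals alone the split of higher and lower was 2589 and 6559 instead of 3759 and 4744 for the sorts, with the median of all genes at -0.40, 1291 and 1885 instead of 1668 and 1373 for macrophage or monocyte-like cells, and 1473 and 985 instead of 1148 and 1277 for astrocyte-like cells.

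Uncalled fold changes near 0 changed sign. In macrophage or monocyte-like cells C1qa ran from -0.57 to 0.05, C1qb from -0.52 to 0.03 and C1qc up to 0.05 without 1 replicate, and the positive values were those without replicate 1. C3ar1, 0.01 as reported, was -0.01 with DESeq2, -0.14 with library totals, -0.06 with every gene of 1 count, -0.12 to 0.24 without 1 replicate, -0.24 with doublets kept, -0.18 without the highest doublet scores and -0.10 with class per cell. In border macrophage-like cells C1qc was -0.09 to 0.02 without 1 replicate and 0.04 without the highest doublet scores. In astrocyte-like cells C4b was -1.49 to 0.07 without 1 replicate, 0.07 with doublets kept and 0.22 with class per cell.

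Among log2 stage ratios, C1q in microglia-like cells was, medium over early, 0.02 with class per cell, -0.15 without the highest doublet scores and -0.01 and -0.08 in runs 1 and 2. Late over early it was -0.35 without those scores and -0.50 and -0.29 in runs 2 and 3, and late over medium -0.42, -0.21 and, in runs 1 to 3, -0.36, -0.42 and -0.26. Leaving out 1 library gave -0.07 to -0.05, -0.5 to -0.3 and -0.44 to -0.24. With class per cell, C3 in microglia-like cells was -0.67 late over medium, Itgam late over early was -0.08 in border and 0.52 in other macrophage-like cells, C1q in astrocyte-like cells was -0.40 medium over early, C4b in fibroblast-like cells was -0.18 late over medium, and Serping1 there was -0.31, -1.71 and -1.40 (medium over early, late over early, late over medium). Within runs, C3ar1 in microglia-like cells was -1.02 late over medium in run 1 and -0.14 without the highest doublet scores. C4b in border macrophage-like cells was 0.01 and C3ar1 in macrophage or monocyte-like cells -0.03 late over early in run 2, and Itgam in the latter was 0.22 in run 1. C1q in oligodendrocyte-like cells was 0.44 late over early in run 3, C4b there was 0.28 late over medium in run 2, and Serping1 in fibroblast-like cells was -0.77 medium over early in run 1. C1qc in macrophage or monocyte-like cells was -0.00 to 0.15 late over medium with 1 library left out. The cause was not tested for any of these.

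Of 192 counts of calls 179 stayed within 1.5 times, and of the member fold changes 286 kept direction and call, 5 gained a call, 3 lost one and 18 changed sign. Each stage held 1 tumor sample, so stage ratios carry no biological error. C4b, C3 and C5ar1 had few UMIs per cell, and 13.4% of cells lay near the limit between classes when classed singly.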

Other observations

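The genes that followed C1q over the classes differed among themselves in where they were highest. Summed over all cells of a class in the CD45+ sorts, Ctss stood at 6057 CPM in microglia-like, 4388 in macrophage or monocyte-like and 2675 in border macrophage-like cells. Trem2 had the same order, with 1017, 497 and 361, and so had Ly86, with 1929, 1287 and 1088. Ly86 was higher still in the unnamed cells of the CD45+ sorts, at 2290, and in microglia-like cells of the CD45- sorts, at 2121, and the latter also had more Ctss, at 6285, but less Trem2, at 811. Among these 3 classes Aif1 was highest in macrophage or monocyte-like cells, at 403 against 270 in border macrophage-like and 259 in microglia-like cells, and Bcl2a1b had its highest level there too, at 828 against 562 and 487. All 5 were also seen in T cell-like cells, at 1468 for Ctss, 495 for Ly86, 384 for Bcl2a1b, 181 for Trem2 and 89.7 for Aif1. In oligodendrocyte-like cells they stood at 461, 129, 20.3, 74.5 and 27.1 in the CD45+ sorts and between 0.508 and 4.95 in the CD45- sorts. These levels were not tested.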
